A study of Mus musculus with 18 samples.

Results

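Mouse ESCs without Nsd1 were compared at day 4 and day 2 after differentiation had been induced, to find which late changes in expression still took place when this H3K36 methyltransferase was missing. All libraries of the 2 Nsd1-KO lines at these days entered the comparison, 4 at day 4 and 4 at day 2, which is 8 of the 18 libraries of the series. They were chosen by the genotype and time point in their labels, not by any measured value. E14 is a mouse ESC line from blastocysts. KO-1 and KO-2 are independent clones, each with a homozygous deletion of exon 5 of Nsd1, which was cut out with Cas9 and a pair of guide RNAs in E14 cells whose Nsd1 already carried a knocked-in 3×Flag tag. Both days therefore share the deletion and the tag, and each line stands for 1 clone. The cells were maintained with LIF on inactivated MEFs, were seeded on gelatin without LIF or MEFs at day 0, and were passaged every other day. WT E14 cells went through the same protocol, with 2 libraries a day, and the sources used here do not state whether those libraries came from tagged cells. Each line and day had 2 biological replicates.

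Poly-A RNA was sequenced, and between 13772529 and 23362270 counts per KO library fell on the 20703 genes of the expression table. WT libraries held 9309874 and 9356867 counts at day 2 and 15479919 and 23921193 at day 4. A pair of scales is used throughout. Levels are normalized counts, that is, counts divided by the size factor of their library, which were recovered from the deposited values. Values of single KO libraries are always listed as KO-1 replicate 1, KO-1 replicate 2, KO-2 replicate 1 and KO-2 replicate 2. Changes are differences of the deposited values after the variance stabilizing transformation (VST), on a log2 scale (log2FC), with the standard error (SE) and the Benjamini-Hochberg adjusted p of limma. That scale compresses weakly expressed genes, so their log2FC understates the change. A gene was called, and is said to have risen or fallen, when its adjusted p was under 0.01 and its log2FC beyond 0.58 in either direction. The p-values measure the spread between these libraries.

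ESCs that leave the naive state pass through formative and primed stages that resemble the epiblast. From there Wnt, Nodal, BMP and FGF signals drive cells into the primitive streak, the source of mesoderm and endoderm, whereas cells shielded from those signals tend to become neuroectoderm. The T-box factors T (Brachyury) and Eomes and the homeobox factor Mixl1 mark the streak. Sp5 and Axin2 are direct targets of Wnt signaling through TCF and LEF factors, and Bnip3 and Egln3 are targets of the hypoxia-inducible factors. Nsd1 deposits H3K36me2, a mark that opposes the spread of H3K27me3.

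Promoters of 4 genes that moved between the days are shown because they hold short motifs of those 2 routes. The sequences are the 250 bases before the start of each gene in RefSeq on GRCm38.p6, whereas the counts were made on mm39. Sp5 lies on the + strand at chr2:70474673-70474922 and T on the + strand at chr17:8434173-8434422, and capitals mark the TCF/LEF core CTTTGA or its reverse complement TCAAAG. Bnip3 lies on the - strand at chr7:138909507-138909756 and Egln3 on the - strand at chr12:54203875-54204124, and capitals mark the hypoxia response core ACGTG, which in Bnip3 overlaps its own reverse complement CACGT.
Sp5: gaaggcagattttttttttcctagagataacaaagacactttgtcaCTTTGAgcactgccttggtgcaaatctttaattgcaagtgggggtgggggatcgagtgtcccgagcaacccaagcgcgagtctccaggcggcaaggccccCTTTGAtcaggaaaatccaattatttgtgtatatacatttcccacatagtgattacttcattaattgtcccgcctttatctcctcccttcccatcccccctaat
T: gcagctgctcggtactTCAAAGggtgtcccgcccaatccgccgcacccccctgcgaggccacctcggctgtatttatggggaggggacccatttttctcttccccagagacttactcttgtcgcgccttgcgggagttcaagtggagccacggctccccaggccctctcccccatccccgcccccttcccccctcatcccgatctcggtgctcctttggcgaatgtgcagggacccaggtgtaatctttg
Bnip3: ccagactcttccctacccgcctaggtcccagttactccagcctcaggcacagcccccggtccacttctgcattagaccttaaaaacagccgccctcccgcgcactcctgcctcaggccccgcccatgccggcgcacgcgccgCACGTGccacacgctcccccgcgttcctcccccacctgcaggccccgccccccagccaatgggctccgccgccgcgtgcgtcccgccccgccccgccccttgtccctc
Egln3: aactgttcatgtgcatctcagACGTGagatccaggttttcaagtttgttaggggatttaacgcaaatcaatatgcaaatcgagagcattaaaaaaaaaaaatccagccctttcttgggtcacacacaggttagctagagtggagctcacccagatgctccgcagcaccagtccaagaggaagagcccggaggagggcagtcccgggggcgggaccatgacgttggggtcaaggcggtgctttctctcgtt

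On either strand, CTTTGA occurred in such a window in 15.8% of 27025 genes, and in 3 of the 8 matched genes called higher from the streak and Wnt lists (Sp5, T and Wnt5b). Among all genes it was present in 17 of the 146 matched genes that rose (11.6%) and 19 of the 86 that fell (22.1%). ACGTG occurred in 18.5% of all genes, in 25 of the 146 that rose (17.1%), in 21 of the 86 that fell (24.4%), and in 3 of the 4 genes called lower from the glycolysis and hypoxia list (Aldoa, Bnip3 and Egln3). These are matches of letters in short windows, and no binding was measured here.

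Nsd1 was read first, as a check of the labels. Its normalized counts in KO cells were 854, 927, 964 and 1024 at day 2 and 1103, 910, 575 and 684 at day 4, against 2773 and 3344 in WT cells at day 2 and 2425 and 2111 at day 4. Every KO library lay below every WT library of its day. The count covers all exons of the gene, so it does not read the deletion of exon 5 itself. Between the days the KO level was not called different (log2FC -0.15 ± 0.09, adjusted p = 0.29).

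The pluripotency factors stayed present at both days, so the cells kept the defining markers of their label. Pou5f1 (Oct4) was at 6072, 5422, 4862 and 4710 normalized counts at day 2 and 3252, 3627, 3755 and 3515 at day 4, and Sox2 at 6799, 6817, 6294 and 6339 and then 4083, 4208, 4546 and 4337. For both, every day 4 library was below every day 2 library, but the log2FC of -0.50 ± 0.07 and -0.55 ± 0.05 did not pass the threshold. Nanog had 2604, 2632, 1744 and 1712 normalized counts at day 2 and 4002, 4187, 2957 and 2884 at day 4, a log2FC of 0.57 ± 0.11 that also fell short of it.

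In all, 191 genes rose (0.923% of those tested) and 117 fell (0.565%), and the 4 day 4 libraries did not overlap the 4 day 2 libraries in 307 of these 308 genes, which was so for 23.7% of all genes tested. An absolute log2FC above 1 was found for 39 of the genes that rose and 15 of those that fell, and 6993 genes had an unadjusted p under 0.05. limma-voom on the recovered counts, which does not compress low genes, called 1157 genes higher (5.59%) and 983 lower (4.75%) at the same thresholds, and these held all 308. All 308 changed in the same direction in both clones, which calling them on the pooled libraries favours, and 122 of the genes that rose and 71 of those that fell were also called in each clone alone.

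**Figure D1:**
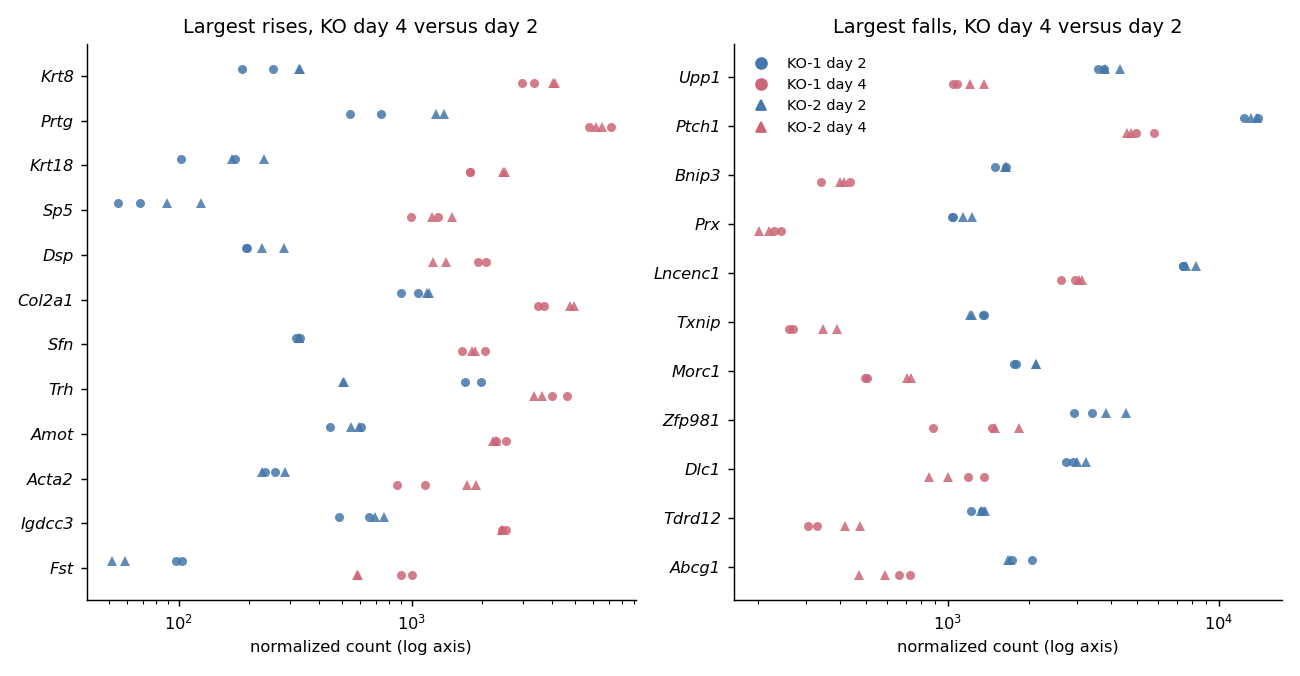
Normalized counts (log axis) in each KO library for the largest rises (12 genes, left) and the largest falls (11 genes, right) among named genes, with circles for KO-1, triangles for KO-2, blue for day 2 and red for day 4. For every gene shown the 4 day 4 points lie on one side of the 4 day 2 points, and the clones separate most at day 2 for Trh and Prtg.

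On the VST scale the largest rise was that of Krt8, which with Krt18 forms the keratin filaments of simple epithelia. By limma-voom its log2FC was 3.73, and genes with fewer counts at day 2 were above it, among them Sp5 (3.92) and Msx1 (4.13). Krt8 had 187, 253, 331 and 329 normalized counts at day 2 and 2964, 3328, 4048 and 4101 at day 4, a 13.1-fold rise of the mean (log2FC 2.41 ± 0.11, adjusted p = 5.6e-12). Krt18 went from 102, 174, 169 and 232 to 1780, 1777, 2469 and 2509 (12.6-fold, log2FC 2.05 ± 0.10, adjusted p = 1.1e-11). All 4 libraries of day 4 exceeded those of day 2 severalfold, in both clones. The desmosome protein gene Dsp rose 7.36-fold and the epithelial gene Sfn (stratifin) 5.64-fold. Amot, which encodes a junction protein of the Hippo pathway, rose 4.26-fold. Dsp changed less in KO-2 than in KO-1 (log2FC 1.31 and 1.91, difference adjusted p = 0.0027). Of 15 surface epithelium genes measured, Krt8, Krt18 and Cldn7 (a claudin of tight junctions) rose and none fell, with a median log2FC of 0.10 beside -0.00087 over all genes, and limma-voom called 5 higher. Cldn7 was close to the threshold (log2FC 0.60), and its value was between 0.51 and 0.57 without any single one of KO-1 day 4 replicate 1, KO-1 day 4 replicate 2, KO-2 day 2 replicate 1 or KO-2 day 2 replicate 2. Krt5, a keratin of stratified epithelium, had at most 3 counts in each KO library.

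A part of the primitive streak programme was taken up. Of 20 streak genes measured, Sp5, Wnt3, Cdx2, Eomes, Fgf8 and T rose and none fell (limma-voom 9 higher and none lower), and the summed normalized count of the list went from 687, 658, 813 and 771 at day 2 to 3837, 4398, 4302 and 3938 at day 4. Sp5 had the largest log2FC of the list on the VST scale, with 68.3, 54.9, 125 and 88.5 normalized counts at day 2 and 992, 1289, 1490 and 1223 at day 4 (14.8-fold, log2FC 1.77 ± 0.07, adjusted p = 5.8e-13). Wnt3, the ligand that starts streak formation in the embryo, rose 6.66-fold from 129, 122, 147 and 166 to 851, 996, 981 and 929. At day 4 the clones overlapped for Wnt3 and not for Eomes and T. Eomes reached 576 and 574 in KO-1 and 232 and 279 in KO-2, from 73.1, 61, 49.2 and 52.7 at day 2 (log2FC 0.91 ± 0.10). T was at 0, 4.07, 1.56 and 0 normalized counts at day 2, from 0 to 4 counts a library, and at 210, 226, 60.2 and 62.9 at day 4 (log2FC 0.82 ± 0.10). In KO-2 alone T had a log2FC of 0.57 and was not called. Cdx2, a caudal-type factor of posterior streak, trophectoderm and gut, went from 3.90, 0, 4.68 and 2.11 to 160, 139, 277 and 241 (log2FC 0.99 ± 0.07). No fold is given for T and Cdx2 because the day 2 libraries held so few counts. Fgf8 rose 4.21-fold. Fewer cells that express a gene and less RNA per cell cannot be told apart in these bulk libraries.

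Other defining genes of streak, mesoderm and endoderm stayed at low counts. Mixl1 had 18.5, 11.2, 12.5 and 33.7 normalized counts at day 2 and 42.8, 51.3, 22.4 and 39.2 at day 4, which overlap. Mesp1, a factor of early mesoderm, was detected in 1 KO library of each day, with 4 and 2 counts, and Msgn1 had at most 3 counts in each KO library. Gsc was between 8.40 and 15.8 at day 4. Of 11 endoderm genes only Trh rose (limma-voom 1 higher), and Sox17 was at 0, 7.69, 1.40 and 3.65 and Gata6 at 2.26, 12.8, 17.5 and 16.4 normalized counts at day 4. Trh encodes thyrotropin-releasing hormone and is not specific to endoderm. None of 14 cardiac and lateral mesoderm genes was called (limma-voom 2 higher, Lmo2 and Nkx2-5), and Tbx5 had at most 3 counts in each library. Nkx2-5 went from between 1.56 and 4.21 to 13.5, 29.5, 51.8 and 49.2 normalized counts.

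**Figure D2:**
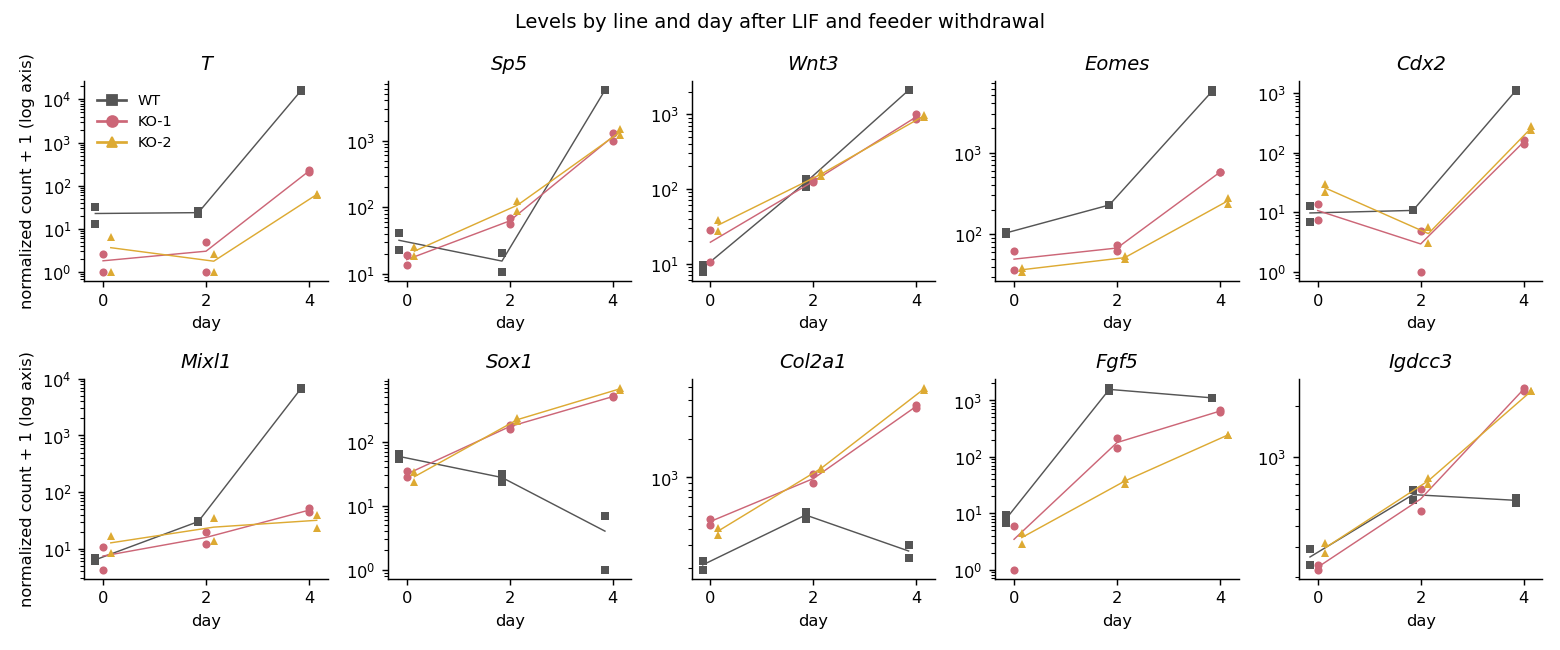
Normalized count plus 1 (log axis) of 10 genes in every library at day 0, 2 and 4, with squares for WT, circles for KO-1 and triangles for KO-2, and lines joining the means of each line. T, Sp5, Eomes and Cdx2 climb between day 2 and day 4 in KO cells to levels below those of WT cells, whereas Sox1, Col2a1 and Igdcc3 end above WT.

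Genes of the signals around the streak rose in small numbers. Of 25 Wnt pathway genes, Axin2 and Nkd1, feedback inhibitors, and Wnt5b, a ligand, rose and none fell, and limma-voom called 11 higher and 2 lower. Axin2 had 380, 369, 400 and 385 normalized counts at day 2 and 1341, 1445, 1219 and 1225 at day 4, a 3.41-fold rise (log2FC 1.04 ± 0.05, adjusted p = 1.5e-11) that was alike in all 4 libraries. Wnt5b went from between 6.10 and 19 to between 127 and 136 (log2FC 0.60, 0.57 without KO-1 day 2 replicate 2), and Nkd1 rose 4.37-fold (log2FC 0.62, 0.578 and not called without KO-2 day 4 replicate 1). Of 18 BMP pathway genes, Fst, an extracellular antagonist of activins and BMPs, rose 9.84-fold, from 103, 97.6, 51.5 and 59.0 to 1005, 893, 582 and 585, and the target Id3 rose 2.7-fold (limma-voom 6 higher and none lower). Id3 was called in KO-2 but not in KO-1 alone, where its log2FC was 0.48. The log2FC was positive for 17 of the 18, against 49.3% of all genes, with a median of 0.18. Among 17 FGF and ERK genes the ligand gene Fgf17 rose 7.14-fold and the ERK phosphatase gene Dusp6 2.65-fold (limma-voom 5 higher and 2 lower). Rdh10, which encodes a retinol dehydrogenase of retinoic acid synthesis, was the one called of 17 retinoid and posterior genes (4.67-fold), of which limma-voom called 6 higher and 1 lower. Cyp26a1, which encodes an enzyme that degrades retinoic acid, was at 23.7, 19.2, 28.0 and 38.3 normalized counts at day 4. Of 15 Nodal pathway genes Skil, a SMAD corepressor, fell (log2FC -0.63 ± 0.11), with -0.55 without KO-2 day 2 replicate 2 and -0.57 without KO-2 day 4 replicate 1, and none rose (limma-voom 3 higher and 1 lower). In KO-1 alone Skil was at -0.36 and was not called. None of 14 Notch genes was called, with the largest value for Hes1 (log2FC 0.47), and limma-voom called 3 higher.

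Some neural and epiblast genes rose beside the streak genes, while the median log2FC was 0.07 for the neuroectoderm list and 0.06 for the epiblast list. Of 27 neuroectoderm genes Sox1, an early neural plate factor, and Nes, the intermediate filament nestin, rose, and none fell (limma-voom 8 higher and 3 lower). Sox1 had 185, 162, 212 and 234 normalized counts at day 2 and 505, 520, 705 and 662 at day 4 (3.02-fold, log2FC 0.73 ± 0.06, adjusted p = 1.3e-08). Nes rose 2.29-fold and did not reach the threshold in KO-2 alone (log2FC 0.575). Pax6, which marks later neural progenitors, did not follow, with 80.0, 77.3, 16.4 and 11.6 at day 2 and 78.9, 49.4, 26.6 and 32.8 at day 4, and Dll1 had a log2FC of -0.42. Of 21 formative and primed epiblast genes Cdh2 (N-cadherin), Sall2, Fgf5 and Lef1 rose and none fell (limma-voom 4 higher and 2 lower). The summed normalized count of this epiblast list did not rise. It was 68415, 71946, 67951 and 69846 at day 2 and 67501, 66494, 60125 and 60679 at day 4. Fgf5, the classic marker of the primed epiblast, was at 216, 140, 39.8 and 32.7 at day 2 and at 631, 663, 239 and 246 at day 4 (log2FC 0.79 ± 0.15, adjusted p = 0.00042). KO-1 was above KO-2 in Fgf5 at both days, and the gene was not called when the 8 KO libraries were fitted alone. Otx2, another epiblast factor, had a log2FC of -0.24 ± 0.15 (adjusted p = 0.27). Of 9 neural crest genes Msx1, a homeobox target of BMP, rose 17.4-fold from 31.2, 22.4, 29.6 and 40 to 408, 510, 651 and 573 (limma-voom 3 of the list higher and 1 lower).

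Prtg and Igdcc3 encode related immunoglobulin superfamily receptors of the early embryo, and both were among the largest rises on the VST scale. Prtg had 544, 737, 1264 and 1372 normalized counts at day 2 and 7118, 5744, 6142 and 6555 at day 4 (6.53-fold, log2FC 2.21 ± 0.15). KO-1 started lower and gained more than KO-2 (clone difference -0.68 ± 0.12, adjusted p = 0.003). Igdcc3 rose 3.79-fold from 488, 653, 698 and 761 to 2446, 2539, 2427 and 2442, with 4 nearly equal libraries at day 4. Col2a1, the fibrillar collagen of notochord and cartilage, rose 3.92-fold from 899, 1060, 1164 and 1186 to 3671, 3471, 4964 and 4784 (log2FC 1.53 ± 0.09, adjusted p = 6.2e-11). Trh went from 1979, 1684, 513 and 505 to 3989, 4634, 3627 and 3349. KO-2 started lower and gained more than KO-1 (clone difference 0.93 ± 0.11, adjusted p = 0.00056).

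Matrix and adhesion genes showed more rises than falls. Of 53 collagen and laminin genes 5 rose, among them Col2a1, Col5a2, Col5a1 and Col4a1, and Col9a2 fell (limma-voom 11 higher and 4 lower), while the median log2FC was 0.00060. Col5a2 rose 4.55-fold. Col4a1 sat at the threshold (log2FC 0.58) and was not called after quantile normalization or median centring, nor without any one of KO-1 day 2 replicate 1, KO-1 day 4 replicate 1, KO-2 day 2 replicate 1 or KO-2 day 4 replicate 2 (0.55 to 0.57). Of 28 integrin genes Itga5 rose 1.78-fold and Itga3 1.64-fold, the latter called neither without KO-1 day 2 replicate 1 (log2FC 0.53) nor without KO-1 day 2 replicate 2 (0.55). Itga3 was also not called in KO-2 alone (0.45) or with the 8 KO libraries fitted alone. limma-voom called 6 of the integrin genes higher and 3 lower. Of 14 genes of epithelial-mesenchymal transition the membrane protease gene Mmp14 and the repressor gene Zeb2 rose, and Fn1, which encodes fibronectin, fell from 15174, 17508, 18019 and 18651 to 9136, 8054, 7756 and 7708 (log2FC -1.03 ± 0.08). limma-voom called 3 of the 14 higher and 1 lower. Vim (vimentin) had a log2FC of 0.40 and was not called. The log2FC of Zeb2 was 0.55 in KO-2 alone. Of 15 extraembryonic endoderm genes, the matrix genes Sparc and Col4a1 rose (limma-voom 3 higher and 1 lower). Sparc (log2FC 0.59) was below the threshold without KO-1 day 2 replicate 2, KO-2 day 4 replicate 1 or KO-2 day 4 replicate 2 (0.53 to 0.56). Hnf4a, a factor of visceral endoderm, was lower in all 4 day 4 libraries but not called (log2FC -0.29).

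In the trophectoderm, Hox, germline and 2-cell-like lists few genes or none were called on the VST scale, whereas limma-voom called more in each. Of 13 trophectoderm genes only Cdx2 rose on the VST scale, with Gata2 at a log2FC of 0.58 just short of the threshold and Gata3 going from between 4.68 and 10.2 to 38.3, 47.4, 70.7 and 92.1 normalized counts, and Elf5 had at most 3 counts in each library. limma-voom called 3 of them higher. None of the 32 Hox genes measured was called, although limma-voom called 13 higher. A positive log2FC was found for 31 of them, against 49.3% of all genes. Their summed level was 73.1, 59, 55.4 and 99.1 normalized counts at day 2 and 276, 274, 526 and 468 at day 4. In KO cells at day 0 it had been 323, 251, 275 and 319. Hoxc10 had 0 counts in all 4 day 2 libraries and 18, 12, 47 and 28 at day 4. Hoxc8 had between 0 and 2 counts at day 2 and 37, 33, 54 and 67 at day 4. Of 28 germline genes Ddx4 (Vasa), an RNA helicase of germ cells, rose 2.28-fold, and Smc1b, a meiotic cohesin, and Rpl10l, a ribosomal protein paralog of testis, fell (limma-voom 5 higher and 5 lower). Without KO-1 day 2 replicate 1, KO-1 day 4 replicate 1 or KO-1 day 4 replicate 2, Rpl10l had a log2FC between -0.51 and -0.56 and was not called. Its reads may be split with other copies of that protein gene. None of 13 genes of the 2-cell-like state was called, and limma-voom called 4 lower. The near-identical Zscan4 genes were among these, with Zscan4c at 23.4, 16.3, 25 and 19 normalized counts at day 2 and at 4.51, 0, 9.80 and 3.65 at day 4.

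Genes of the naive state were among those that fell. Of 16 naive pluripotency genes Klf2, Zfp42 (Rex1), Tcl1 and Nr0b1 (Dax1) fell and none rose, with a median log2FC of -0.37. limma-voom called 8 lower and 1 higher, the latter being Nanog (0.70), the most abundant gene of the list. Zfp42 had 3856, 3525, 3491 and 3568 normalized counts at day 2 and 1998, 1953, 1986 and 1978 at day 4 (log2FC -0.71 ± 0.04, adjusted p = 2.3e-10), and Klf2 3268, 3134, 3140 and 2948 and then 1370, 1745, 1553 and 1411. Tcl1 fell 4.87-fold and Nr0b1 3.13-fold. Without KO-1 day 4 replicate 1 Nr0b1 had a log2FC of -0.579 and was not called. The noncoding RNA Lncenc1, transcribed in ESCs, fell 2.61-fold from 7374, 7366, 7604 and 8281 to 2953, 2613, 3046 and 3137. None of 12 general pluripotency genes was called (limma-voom 1 lower), and none of 12 LIF and STAT3 genes (limma-voom 3 higher), where Junb had the largest log2FC (0.57).

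Upp1, which encodes uridine phosphorylase, had the largest fall on the VST scale, although less abundant genes such as Prx and Txnip fell by a larger fold. Upp1 had 3764, 3584, 4330 and 3802 normalized counts at day 2 and 1045, 1086, 1212 and 1357 at day 4 (3.29-fold, log2FC -1.35 ± 0.07, adjusted p = 4.6e-11). Ptch1, the Hedgehog receptor and a target of that pathway, fell 2.65-fold from 12373, 13925, 13153 and 13814 to 5770, 4940, 4611 and 4766. In both genes the 4 libraries of each day were close together. Prx (periaxin) fell 5.0-fold and Txnip, a thioredoxin-binding protein gene that glucose induces, 4.08-fold. The sterol transporter gene Abcg1 fell 2.92-fold and the RhoGAP gene Dlc1 2.7-fold. Morc1 and Tdrd12, genes of transposon silencing in germ cells, fell 3.19-fold and 3.44-fold. Zfp981, one of a cluster of closely similar zinc finger genes whose reads may be shared, fell 2.59-fold.

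Genes of glycolysis and the hypoxia response went down more often than up. Of the 25 measured entries of that list, which include a second Aldoa identifier at low counts, Bnip3, Pfkp, Egln3 and Aldoa fell and Slc2a3 rose, with a median log2FC of -0.26 (limma-voom 8 lower and 1 higher). Bnip3, which encodes a mitophagy receptor, had 1648, 1491, 1633 and 1641 normalized counts at day 2 and 436, 342, 400 and 415 at day 4 (4.02-fold, log2FC -1.23 ± 0.05, adjusted p = 7.8e-13). Pfkp, a phosphofructokinase, fell 2.08-fold. Egln3, a prolyl hydroxylase of the oxygen sensor, fell 2.58-fold, with a log2FC between -0.549 and -0.579 without KO-1 day 2 replicate 1, KO-1 day 2 replicate 2 or KO-2 day 4 replicate 2. Aldoa (log2FC -0.60) was at -0.56 and -0.57 without KO-1 day 4 replicate 1 or KO-1 day 4 replicate 2. Pgk1 and Ldha had a log2FC of -0.48 and -0.38, with all day 4 libraries below all day 2 libraries. Slc2a3, the glucose transporter GLUT3, rose 1.82-fold from 18004, 18457, 15216 and 15786 to 34020, 31537, 28380 and 28594.

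Of 19 genes for H3K36, H3K27 and DNA methylation, Jarid2, a PRC2 partner, and Dnmt3l, a cofactor of de novo DNA methylation, fell (log2FC -0.87 ± 0.08 and -0.79 ± 0.12), and none rose (limma-voom 1 higher and 3 lower). Dnmt3l in KO-2 alone was at -0.55. Of 22 imprinted genes 5 rose and none fell, namely Grb10, Igf2, H19, Peg3 and Phlda2 (limma-voom 6 higher and none lower). Igf2, a growth factor, rose 4.75-fold from 68.3, 50.8, 97.5 and 63.2 to 236, 338, 404 and 352, and its neighbour H19 rose 2.97-fold. Grb10, Peg3 and Phlda2 were not called when the 8 KO libraries were fitted alone. Phlda2 (log2FC 0.60) was at 0.48 to 0.56 without KO-2 day 2 replicate 2, KO-2 day 4 replicate 1 or KO-2 day 4 replicate 2, and Peg3 (0.67) at 0.535 without KO-1 day 4 replicate 1. Neither was called in both clones alone, with 0.24 for Phlda2 in KO-1 and 0.38 for Peg3 in KO-2. Of 12 Igf and Netrin genes Unc5b, a netrin receptor, rose 2.89-fold, Igfbp3 2.50-fold and Igfbp2 1.60-fold (limma-voom 5 higher and 1 lower). In KO-2 alone Igfbp3 was not called (log2FC 0.55), and Igfbp2 was not called when the 8 KO libraries were fitted alone. Igfbp2 had a log2FC of 0.28 in KO-1 and 0.94 in KO-2 (difference adjusted p = 0.003) and was at 0.51 to 0.57 without KO-2 day 2 replicate 2, KO-2 day 4 replicate 1 or KO-2 day 4 replicate 2. Among 15 Trp53 targets Cdkn1a (p21) rose 2.54-fold (limma-voom 2 higher). Fosl2, an AP-1 subunit, was the one called of 14 immediate early genes (5.69-fold), of which limma-voom called 6 higher and 1 lower. Cyp51 was the one called of 20 cholesterol synthesis genes (1.68-fold) and the cyclin Ccnd2 the one of 20 proliferation genes (3.30-fold), where Mki67 had a log2FC of -0.31, and limma-voom called 2 higher in each of these lists.

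**Figure D3:**
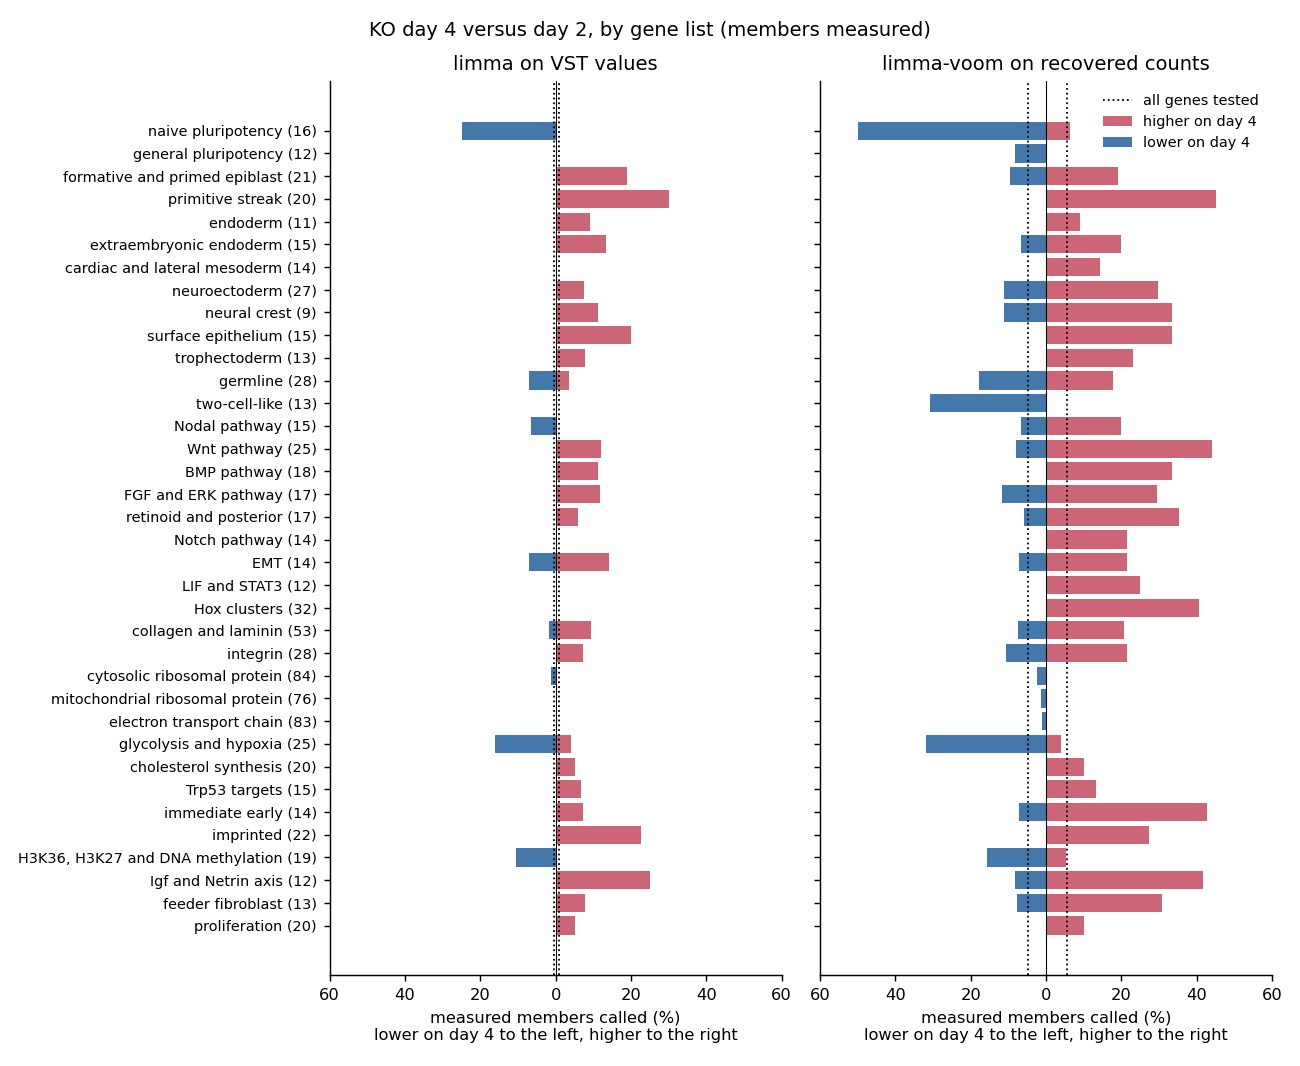
Percent of the measured members of each gene list called higher (red, to the right) and lower (blue, to the left) in KO cells at day 4, by limma on VST values (left panel) and by limma-voom on recovered counts (right panel), with the number measured in brackets and dotted lines at the percent of all genes called. The streak, Wnt and Hox lists extend farther right in the right panel, and the naive pluripotency list farther left.

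The feeder layer is the other cell type such a culture could hold. Of 13 embryonic fibroblast markers Acta2 rose, 12 were not called, and Twist2 had at most 3 counts in each library (limma-voom 4 higher and 1 lower). Acta2, smooth muscle actin, went from 259, 234, 284 and 227 to 863, 1133, 1877 and 1727 normalized counts and was the most abundant of the list by normalized count at day 4, whereas Col1a1 was above it at day 2. The summed level of the list was 1030, 968, 1189 and 1156 at day 2 and 1747, 2064, 3496 and 3246 at day 4. At day 0 it was higher in KO cells, at 6061, 5963, 6973 and 7140. In WT cells it was 3622 and 3492 at day 0, 1452 and 1308 at day 2 and 3618 and 3465 at day 4. Col1a1, the defining collagen of fibroblasts, was at 269, 319, 362 and 365 and then at 282, 313, 717 and 658, and Thy1 was lower at day 4 in all libraries (log2FC -0.28). Their part in the rise of collagen and Acta2 was not tested.

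More genes were called for the same step in WT cells. In WT, 1178 genes rose (5.69%) and 636 fell (3.07%) between day 2 and day 4. The WT libraries enter the KO contrast only through the shared estimate of the spread, and the 8 KO libraries fitted alone gave 292 called genes instead of 308. Of the 191 genes that rose in KO cells, 128 also rose in WT cells (67.0% of the KO genes and 10.9% of the WT genes), 57 were not called there and 6 fell. Of the 117 that fell, 58 fell in WT (49.6% and 9.12%), 54 were not called and 5 rose. Seen from WT, 961 of its 1178 rising genes (81.6%) had a positive log2FC in KO cells, against 49.3% of all genes, and for 612 (52.0%) the KO libraries separated upward, against 12.3% of all genes. Of the 636 falling genes 536 (84.3%) had a negative log2FC in KO cells, against 50.4% of all genes, and for 288 (45.3%) the KO libraries separated downward, against 11.4%. By limma-voom the median of all genes was shifted by -0.17 in WT and by 0.13 in the difference between KO and WT, against -0.02 and 0.01 on the VST scale.

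**Figure D4:**
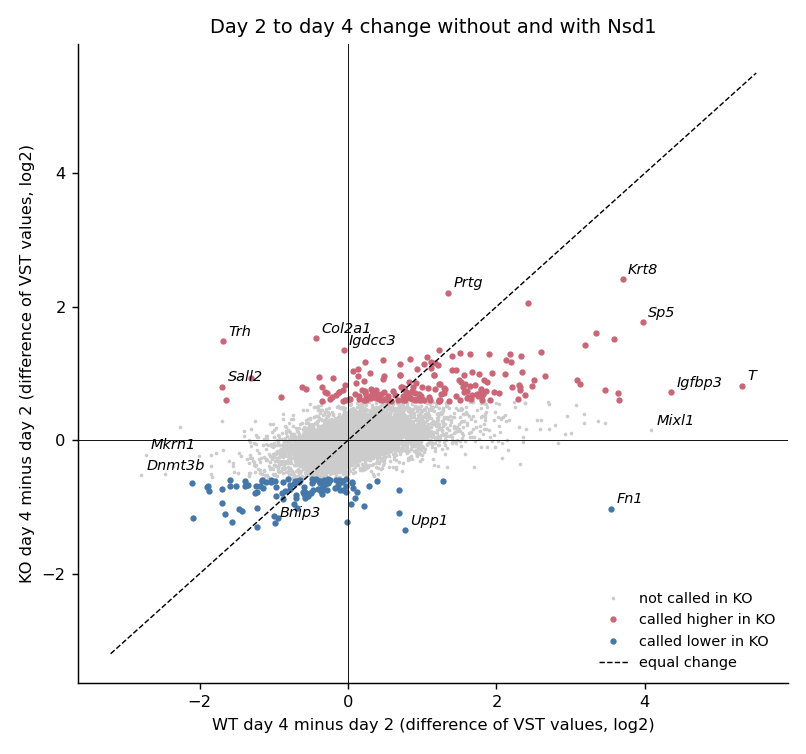
Change from day 2 to day 4 of all 20703 genes in WT (x axis) and KO cells (y axis), as differences of VST values (log2), with genes called higher in KO in red, called lower in blue and all others in grey, and a dashed line of equal change. T, Igfbp3 and Mixl1 lie far to the right and below the dashed line, Trh, Sall2 and Col2a1 above it to the left, and Fn1 below it to the right.

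The difference between the KO and the WT change was tested as an interaction, and was called positive for 445 genes (2.15%) and negative for 883 (4.27%). By limma-voom it was positive for 1400 (6.76%) and negative for 1466 (7.08%). On the VST scale a gene with few counts at day 2 in KO cells can differ although its fold does not, since low values are compressed. For the streak list the difference was negative in 18 of 20 genes and positive in none (limma-voom 15 and none). T went from 24.4 and 21.1 normalized counts to 16441 and 16055 in WT, against at most 226 in KO cells (difference -4.49 ± 0.17, adjusted p = 4.6e-14 by limma on VST values). With 0 to 4 counts in the KO libraries at day 2, limma-voom did not call this difference (adjusted p = 0.20). Sp5 ended at 5716 and 5687 in WT and Eomes at 5793 and 5481 (differences -2.20 and -2.18), and Mixl1 at 6928 and 6730 (-3.93). Wnt3 differed less (-0.90 ± 0.09), with 2097 and 2106 in WT at day 4. On the VST scale Fn1 had the largest negative difference, -4.58 ± 0.13, and rose in WT from 3481 and 4195 to 54170 and 49015. The other large negative differences were those of Igfbp3 (-3.63), Krt19 (-3.22), Cyp26a1 (-3.08) and the interferon-inducible GTPase genes Gbp2b (-3.04) and Gbp2 (-2.93), close paralogs that may share reads. Gbp2 and Gbp2b rose in KO cells too, 8.63-fold and 8.62-fold, from at most 29.6 normalized counts a library. Gbp2b lost its call without KO-1 day 4 replicate 1 (log2FC 0.579). Upp1 rose in WT and fell in KO cells (-2.11 ± 0.13). Rises that did not differ beyond the threshold between KO and WT cells included Krt18 (difference -0.37 ± 0.17, adjusted p = 0.12), Rdh10 (0.18 ± 0.12), Unc5b (-0.02 ± 0.12) and Lef1 (0.01 ± 0.11), and falls included Ptch1 (-0.08 ± 0.12), Klf2 (-0.13 ± 0.10) and Bnip3 (-0.24 ± 0.09). Of these 7, limma-voom called the difference for Klf2 alone (0.94).

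Of the 191 genes that rose in KO cells, 67 had a negative difference on the VST scale, 34 a positive one and 90 were not called for it. The sign and the call held by limma-voom for 49 of those 67 and for 31 of those 34. Those it did not call included Krt8, Fst, Msx1 and Cdx2. Of the 117 that fell, 19 had a negative difference, 13 a positive one and 85 none that was called, and by limma-voom 18 and 13 of these kept their call. Among the rises Trh had the largest positive difference on the VST scale, 3.17 ± 0.36, and fell in WT from 1990 and 1935 normalized counts to 262 and 295. Col2a1 was at 300 and 236 in WT at day 4 (difference 1.97 ± 0.15) and Igdcc3 at 582 and 538, little changed from 647 and 562 (1.41 ± 0.11). Sall2, a zinc finger factor, and Pcdh1, a protocadherin, fell in WT and rose in KO cells (2.50 and 2.24). Sox1 was at 22.8 and 30.8 in WT at day 2 and at 6.04 and 0 at day 4 (difference 1.04 ± 0.10, adjusted p = 1.4e-07). The positive differences of Mkrn1 (2.51), Pim2 (2.46), Dnmt3b (2.26) and Enpp2 (1.99) came with falls in WT, and none of these 4 was called in KO cells. Dnmt3b, the de novo DNA methyltransferase of the epiblast, kept between 17612 and 21062 normalized counts at day 4 in KO cells and had 5919 and 5640 in WT. The same held for Sox2 (difference 1.29), which was at 253 and 217 in WT at day 4. In the germline list the difference was positive for 15 of 28 genes and negative for none (limma-voom 21 and none), and in the formative and primed list positive for 11 of 21 and negative for 1 (limma-voom 11 and 2).

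The change differed between KO-2 and KO-1 for 244 genes (1.18%), of which 119 were higher and 125 lower in KO-2, and 12 of them were among the 308. Further named genes were not called in KO-2 alone, besides those for which a value in 1 clone is given above. Those that rose were Cldn7 (log2FC 0.51), Gbp2b (0.53), Wnt5b (0.55), Cyp51 (0.57) and Col4a1 (0.57). Those that fell were Rpl10l (-0.32), Aldoa (-0.51), Col9a2 (-0.53), Egln3 (-0.55) and Zfp985 (-0.576). In KO-1 alone Sparc (0.43) and Zfp978 (-0.46) were not called. Rpl10l was also not called with the 8 KO libraries fitted alone. Of 84 cytosolic ribosomal protein genes, 58 had a higher change in KO-2, and so had 9 of 83 electron transport chain genes (median log2FC -0.26 in KO-1 and 0.16 in KO-2) and none of 76 mitochondrial ribosomal protein genes (-0.15 and 0.09). The median VST value of the cytosolic list was 12.84 and 12.69 in KO-1 at day 2 and 12.32 and 12.41 at day 4, and 12.52 and 12.50 in KO-2 at day 2 and 12.78 and 12.78 at day 4. In the pooled comparison 1 of the 84 was called (Rpl10l, lower), with a median log2FC of -0.05. No gene of the mitochondrial ribosomal protein and electron transport chain lists was called in it on the VST scale, and limma-voom called 1 of each list lower. Rps12 shows the pattern, with 9893, 7954, 6891 and 5982 normalized counts at day 2 and 5421, 6453, 9741 and 9675 at day 4. The clone difference followed transcript length. Its Spearman rho across 10336 genes above the median level was -0.70, and the rho of the change itself was 0.39 in KO-1, -0.35 in KO-2 and 0.02 when both were pooled. The 119 genes higher in KO-2 had a median longest transcript of 1055 bases and the 125 lower ones of 9148, against 2824.5 for all genes. Genes are not independent replicates, and all points share the same libraries. The genes called in the pooled comparison had medians of 4051 bases when they rose and 3895 when they fell. Entering the ribosomal protein level of each library as a term gave 196 genes higher and 121 lower.

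**Figure D5:**
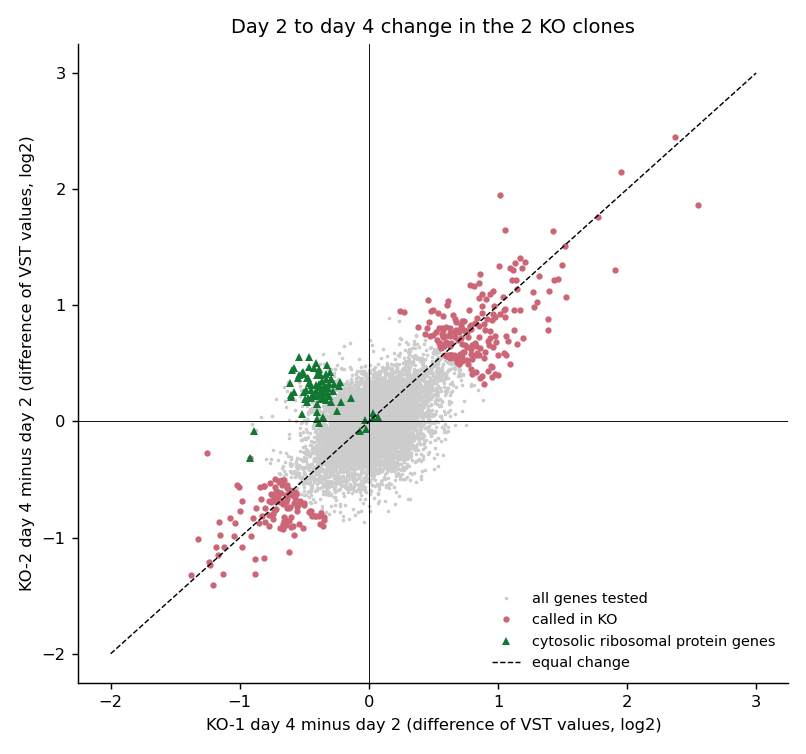
Change from day 2 to day 4 of all 20703 genes in KO-1 (x axis) and KO-2 (y axis), as differences of VST values (log2), with called genes in red, cytosolic ribosomal protein genes as green triangles and a dashed line of equal change. Red points follow the dashed line in both directions, whereas most green triangles lie up and to the left of it.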

How the data were processed

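RNA-seq libraries of WT and Nsd1-KO E14 mESCs were analysed from the table of expression values that the authors deposited. The authors trimmed reads with Trim Galore 0.6.7, aligned them to mm39 with STAR 2.7.11a, counted primary, nonduplicated fragments on exons with featureCounts 2.0.6, dropped genes with an average count under 1 and deposited variance stabilized values of DESeq2 1.42.0, on a log2 scale, for 20703 genes. The library kit named in the labels does not mark strand, so a gene and an antisense partner cannot be told apart. The lowest value, 8.359, is a count of 0. Inverting the transformation gave a whole count within 0.02 for 100% of the values, and with it the depth and the size factor of each library. Most low counts were even, and the reason was not found.

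One limma fit (limma 3.58.1, R 4.3.3, trended prior variance) held all 18 libraries in 6 groups of genotype and day, with KO-1 and KO-2 combined as KO, and p-values were adjusted over all genes by Benjamini and Hochberg. Calls used an adjusted p under 0.01 and an absolute log2FC over 0.58. The clone contrasts came from 9 groups of line and day. limma-voom on the recovered counts, with those size factors, was run beside it. The steps were tested on simulated data. The alternatives were the KO libraries alone, clones kept apart or alone, a replicate block, a filter on the mean, quantile normalization, median centring, no variance trend, library totals, counts thinned to 9309874, other thresholds, and each library left out.

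Genes named are Nsd1 and the 12 largest rises and 12 largest falls among called genes whose days do not overlap. The 8 largest differences from WT in each direction were added. So were members of most of the 36 lists, in unequal numbers, and defining markers near 0. Predicted genes were passed over, and 2 genes that the rule names are not reported here. The comparison, the lists and this rule were chosen with earlier results of these data known. A group with at most 3 counts a library was taken as the floor. Replicates are biological replicates by their labels, and the chi-square per gene between 2 replicates of a line and day was 2.22 to 12.6, against 1 for sampling noise of independent counts and 2 if every count stood for a doubled read. Nothing in the sources used here says that replicates of one number were handled together. No pairing was used. Transcript lengths came from GENCODE M21 on GRCm38, and promoters from RefSeq on GRCm38.p6. Plots were made with matplotlib 3.10.9 (Python 3.11.15). Genomic positions on mm39 were not analysed here.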

Additional observations from a re-analysis of the deposited data

Results flagged for a closer look

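In 10 of 274 groups of 4 KO libraries tested for the genes named, 1 library lay farther from its nearest neighbour than the 95% limit of Dixon's test for 4 values allows, and chance alone puts about 1 group in 20 there. At day 4 these were Igdcc3 (VST value 11.63), Mesp1 (8.45) and Elf5 (8.45), all in KO-1 replicate 2. At day 2 they were Gli3 in KO-1 replicate 1 (10.48), Hoxc9 in KO-2 replicate 1 (8.50), Cyp26a1 in KO-2 replicate 2 (8.36), Mesp1 in KO-1 replicate 1 (8.52), Msgn1 in KO-1 replicate 1 (8.47), Tbx5 in KO-1 replicate 2 (8.47) and Bnip3 in KO-1 replicate 2 (11.03). The values of Hoxc9, Cyp26a1, Mesp1, Msgn1, Tbx5 and Elf5 stand for 0 to 4 counts.

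The change from day 2 to day 4 differed between KO and WT cells for 1328 genes by the interaction contrast of limma. Among the genes named, the KO change was below the WT change, on the log2 scale of the VST values, by the following differences. For streak and Wnt genes the difference was -4.49 for T, -3.93 for Mixl1, -2.20 for Sp5, -2.18 for Eomes, -1.60 for Fgf8, -1.31 for Wnt5b, -1.13 for Cdx2, -0.93 for Gsc and -0.90 for Wnt3. For mesoderm and endoderm genes it was -2.39 for Msgn1, -1.73 for Mesp1 and -1.47 for Gata6. For epithelial and junction genes it was -3.22 for Krt19, -2.07 for Sfn, -1.77 for Amot, -1.73 for Dsp and -1.29 for Krt8. For matrix, cytoskeleton and adhesion genes it was -4.58 for Fn1, -2.78 for Vim, -2.71 for Col5a1, -2.29 for Cdh2, -1.10 for Itga5, -1.08 for Tpm1, -1.02 for Acta1, -0.93 for Cald1, -0.91 for Col1a1, -0.77 for Sparc, -0.64 for Col4a1 and -0.59 for Zyx. Further negative values were -3.63 for Igfbp3, -3.08 for Cyp26a1, -3.04 for Gbp2b, -2.93 for Gbp2, -2.11 for Upp1, -1.78 for Dlc1, -1.72 for Peg3, -1.27 for Fst, -1.21 for Prx, -1.07 for Junb, -0.82 for Dll1, -0.74 for Slc2a3, -0.66 for Fosl2, -0.61 for Msx1 and -0.59 for Dusp6.

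The KO change was above the WT change for Trh (3.17), Mkrn1 (2.51), Sall2 (2.50), Pim2 (2.46), Dnmt3b (2.26), Igfbp2 (2.26), Pcdh1 (2.24), Enpp2 (1.99), Col2a1 (1.97), Otx2 (1.76), Igdcc3 (1.41), Ddx4 (1.33), Sox2 (1.29), Grb10 (1.15), Fgf5 (1.14), Sox1 (1.04), H19 (0.99), Zfp985 (0.99), Col5a2 (0.98), Zfp980 (0.90), Zfp990 (0.81), Rpl10l (0.77), Pax6 (0.69) and Zfp534 (0.68). Of the 68 genes given here, 14 were not called for the difference by limma-voom, namely T, Cdx2, Wnt5b, Gsc, Krt8, Fst, Msx1, Acta1, Zyx, Col1a1, Col4a1, Dusp6, Fosl2 and Pax6.

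KO-1 and KO-2 differed in their change for 244 genes. Of the genes named, the KO-2 change was above the KO-1 change in Rps12 (1.09), Trh (0.93), Phlda2 (0.71), Igfbp2 (0.67), Rpl10l (0.60) and Acta2 (0.59), and below it in Prtg (-0.68) and Dsp (-0.60). Whether the clones or the preparation of their libraries carry this difference cannot be told apart, since each line and day had its own libraries.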

How the results depend on the processing

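Against 308 called genes (191 higher and 117 lower), limma-voom gave 2140 (1157 and 983), limma-voom with library totals 2107 (1164 and 943), limma-voom on thinned counts 1592 (905 and 687), and an absolute log2FC over 1 left 54 (39 and 15). KO-2 alone gave 194 lower. For the difference between KO and WT the same 4 settings gave 2866, 2835, 2219 and 372 instead of 1328, and for WT cells 4988, 4950, 4445 and 549 instead of 1814. limma-voom gave 592 genes instead of 244 for the clone difference. The VST scale compresses low genes by construction. Leaving out 1 library at a time gave 307 to 322 genes in KO cells and 1249 to 1382 for the difference. With a replicate block 308 genes were called in KO cells, 1329 for the difference and 1809 in WT, and the block changed no call among the genes named. Deviations of same-numbered replicates at day 2 and day 4 were correlated across 10351 genes. The r was -0.50 in KO-1, 0.39 in KO-2 and -0.33 in WT. With so few replicates, these mixed signs cannot tell whether the numbers pair the libraries. The ribosomal protein term, added after seeing the data, gave 317. Of 95 named genes called in KO cells, 68 kept their call in all 21 other fits at the same thresholds, and in none did a called value change sign. For the others the cause was not tested. Of 68 named genes called for the difference from WT, 14 were not called by limma-voom. Depth limits genes with few counts at day 2, such as T, Cdx2 and the Hox genes, for which counts or levels are given in place of folds.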

Other observations

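Beside Acta2, the genes Acta1, Tpm1, Cald1, Flnc, Cnn1 and Zyx, whose proteins bind or form actin filaments, rose between day 2 and day 4 in KO cells. These 6 were picked after their values were seen, and no list of such genes was counted. The actin gene Acta1 had 25.4, 6.10, 29.6 and 40 normalized counts at day 2 and 301, 412, 525 and 474 at day 4 (log2FC 1.18 ± 0.07). Tpm1 (tropomyosin), with 3074, 2980, 3204 and 3234 and then 7542, 7850, 9124 and 8769, rose 2.66-fold. Cald1 (caldesmon) rose 3.29-fold, Flnc (filamin C) 2.71-fold, Cnn1 (calponin) 7.02-fold and Zyx (zyxin), a focal adhesion gene, 2.34-fold. All of them rose in WT cells too. On the VST scale the rises of Flnc (difference 0.05 ± 0.12) and Cnn1 (-0.19 ± 0.10) did not differ beyond the threshold from those in WT. By limma-voom Cnn1 had a difference of 0.97 (adjusted p = 0.01), which was not called. Its day 2 mean was 63.6 normalized counts in KO cells and 459 in WT cells. The rises of Tpm1 and Cald1 were smaller in KO cells (differences of -1.08 and -0.93). Acta1 and Zyx had differences of -1.02 and -0.59 on the VST scale, which limma-voom did not call (-0.43 and -0.55).

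Gli1, which Hedgehog signaling induces as it does Ptch1, fell as well, and Gli1 and Gli3 were again picked after their values were seen. Gli1 had 772, 859, 791 and 711 normalized counts at day 2 and 332, 394, 330 and 317 at day 4 (2.28-fold lower, log2FC -0.63 ± 0.05, adjusted p = 5.2e-09). Gli3, which acts mainly as a repressor in that pathway, rose 2.12-fold from 849, 1172, 1140 and 1206 to 2770, 2201, 2075 and 2201. In WT cells Gli1 had a log2FC of -0.38 and Gli3 rose (0.71), and neither differed between KO and WT beyond the threshold.

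Beside Zfp981, the zinc finger genes Zfp990, Zfp980, Zfp534, Zfp978 and Zfp985 fell, with log2FC values of -0.69, -0.69, -0.68, -0.62 and -0.60. Zfp985 was not called without KO-1 day 4 replicate 2 (-0.48) or KO-2 day 2 replicate 2 (-0.56), nor in KO-2 alone (-0.576). Zfp978 was not called without KO-2 day 2 replicate 2 (-0.54), nor in KO-1 alone (-0.46). All 5 fell in WT cells too (between -1.16 and -1.59), and the difference from KO cells passed the threshold for all of them except Zfp978, for which limma-voom did call a difference. Their sequences are similar and reads may be shared between them, so they are not independent measurements.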
